A study of Homo sapiens with 6 samples.

Results

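Genes of cytosolic and endosomal nucleic acid sensing (10 of 49089 entries in the mouse table and 63521 in each human table) were followed through 3 pairs of RNA-seq libraries. The members were chosen by name, as entries whose gene name equals, ignoring case, DDX58, IFIH1, DHX58, MAVS, TMEM173, MB21D1, ZBP1, TLR3, TREX1 or TBK1. All 10 had an entry in every table, and the human tables held 11 matching rows because DHX58 was listed under 2 gene IDs.

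Each pair set a culture with less LARP7, an RNA-binding protein of the 7SK particle that restrains transcription elongation, against its control. Mouse embryonic fibroblasts (MEFs) came from LARP7-/- embryos or from LARP7+/+ (wild-type) embryos at stage E13.5, were used between passages 1 and 6, and are labelled with the human species name although their table lists mouse genes. The human lines MDA-MB-231 and HCC1937, both derived from breast cancers and the second without functional BRCA1, were given siRNA at 10 ng/ml, either siLARP7, directed at LARP7, or siNC as control. The series title concerns LARP7 as a BRCA1 substrate in genome instability. With 1 library in every group, differences have no replicate check, and no test between groups was possible. Depth, recovered from the values, was 36.9 M reads for wild-type and 37.3 M reads for LARP7-/- MEFs, and the human libraries held between 49.3 M and 53.3 M. Larp7 RNA stood at 37.6% of control in knockout MEFs, at 52.2% in MDA-MB-231 and at 51.4% in HCC1937. The labels do not say which part of the gene the knockout lacks, so RNA remaining in the knockout does not bear on its label. Fibroblast markers were all above 1 RPKM in MEFs, and the epithelial list summed to 692 RPKM in HCC1937 and 237 in MDA-MB-231 controls, where VIM also reached 149.

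RIG-I-like receptors detect viral or misplaced double-stranded RNA in the cytosol and signal through the mitochondrial adaptor MAVS. The enzyme cGAS detects cytosolic DNA and makes a cyclic dinucleotide that activates the adaptor STING, while TLR3 reads double-stranded RNA inside endosomes. These routes meet at the kinase TBK1, which activates interferon regulatory factors, and several of the sensor genes are known to be induced by interferon in turn.

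Promoter windows were available for 6 of the 10 genes, as 250 bases before to 50 after the human transcription start in RefSeq on GRCh38.p14. They were searched on both strands for 2 copies of GAAA with 2 bases of any kind between them, a form of the interferon-stimulated response element (ISRE), and for TTCNNNGAA, a form of the gamma-activated sequence. The first was found in IFIH1 and TLR3 and not in DDX58, MAVS, TBK1 or TREX1. The DDX58 window does hold 2 copies of GAAA with 1 base between them, a spacing the search did not cover. Its lack of a match therefore concerns the exact form searched. The windows of IFIH1, TLR3 and DDX58 are shown because these sensors had the widest range of ratios between MEFs and HCC1937 among the 6, a choice made after the values were seen. Capitals mark matches to this ISRE form, in which a match on the opposite strand reads as 2 copies of TTTC. IFIH1 is on the minus strand at chr2:162318635-162318934, TLR3 on the plus strand at chr4:186068906-186069205 and DDX58 on the minus strand at chr9:32526147-32526446.
IFIH1: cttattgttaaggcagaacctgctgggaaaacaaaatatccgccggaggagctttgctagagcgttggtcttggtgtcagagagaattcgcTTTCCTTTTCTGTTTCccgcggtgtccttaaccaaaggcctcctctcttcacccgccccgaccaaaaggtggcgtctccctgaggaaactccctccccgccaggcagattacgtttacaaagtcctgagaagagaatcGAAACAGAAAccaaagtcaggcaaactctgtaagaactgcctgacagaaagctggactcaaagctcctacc
TLR3: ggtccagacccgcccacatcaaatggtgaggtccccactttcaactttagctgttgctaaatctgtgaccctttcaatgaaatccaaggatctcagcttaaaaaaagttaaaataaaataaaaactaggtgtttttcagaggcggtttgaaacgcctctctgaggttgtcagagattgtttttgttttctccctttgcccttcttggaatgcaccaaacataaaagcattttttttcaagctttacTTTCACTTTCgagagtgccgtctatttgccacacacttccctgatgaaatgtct
DDX58: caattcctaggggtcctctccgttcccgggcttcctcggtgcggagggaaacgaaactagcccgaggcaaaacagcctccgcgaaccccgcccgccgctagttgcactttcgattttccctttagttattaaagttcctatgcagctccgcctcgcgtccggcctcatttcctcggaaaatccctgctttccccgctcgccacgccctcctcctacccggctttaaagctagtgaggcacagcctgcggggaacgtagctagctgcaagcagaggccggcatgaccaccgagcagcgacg
IFIH1 held 3 matches, which begin at -159, -153 and -21 from the start site taken as 0, and the first pair overlap. TLR3 held 1 match, beginning at -4. Of 35116 RefSeq windows of the same length, 3.57% held at least 1 match to the ISRE form and 0.037% held 3 or more. TLR3 also held 2 matches to TTCNNNGAA, at -178 and -50, a motif present in 7.66% of windows. A match is a run of letters and not a binding site, and the sequences are human, so they describe the MEF genes only by name.

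Levels are given as RPKM, reads per kilobase of gene scaled to library depth, as the authors deposited them. A gene was called higher or lower when the log2 ratio of RPKM + 1, depleted over control, reached 1 or -1, provided that either library of the pair had 1 RPKM or more. This scale understates the change of low genes. Ratios of RPKM itself carry exact 95% intervals from read numbers recovered from the values, and these intervals cover counting error only, since PCR copies are not independent molecules.

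In knockout MEFs the RIG-I-like receptor genes Ddx58, Ifih1 and Dhx58 and the Z-form sensor gene Zbp1 were called higher than in wild-type MEFs, which is 4 of the 10 genes, and none was called lower. The call of Ifih1 was lost under trimmed-mean scaling, which left 3. Tlr3, Mb21d1, both adaptors, Tbk1 and Trex1 were not called. Over all 14479 genes at the minimum, 2.4% were called higher and 0.884% lower. Of the 10 genes, 9 had a ratio above 0 on the log2 scale. Their median log2 ratio was 0.76, beside 0.0 over all genes at the minimum. Ifih1, Dhx58, Zbp1 and Tlr3 were under 1 RPKM in the wild-type library and reached the minimum only through the knockout.

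Ddx58, which encodes RIG-I, a receptor for short double-stranded and 5′-triphosphate RNA, measured 3.54 RPKM in wild-type and 9.74 RPKM in knockout MEFs. Its RPKM ratio was 2.75 (interval 2.55 to 2.97, from 921 and 2563 reads). It was the one RNA receptor of the set with several RPKM in wild-type MEFs. Ifih1, which encodes MDA5, a receptor for long double-stranded RNA, stood at 0.877 and 2.77 RPKM, a ratio of 3.16 (2.75 to 3.64). Its log2 ratio of 1.01 lay just past the rule, and under trimmed-mean scaling it was 0.96, short of it. Dhx58, which encodes LGP2, a regulator of the other RIG-I-like receptors, stood at 0.381 and 2.74 RPKM, a ratio of 7.18 (4.63 to 11.6, from 23 and 167 reads). The 3 RIG-I-like receptors thus differed in the same direction, with Dhx58 resting on the fewest wild-type reads.

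Tlr3, the endosomal receptor, stood at 0.588 RPKM in wild-type and 1.87 RPKM in knockout MEFs, a ratio of 3.18 (2.57 to 3.97). Its log2 ratio of 0.86 on RPKM + 1 missed the rule, although its RPKM ratio was close to that of Ifih1. Zbp1, which binds Z-form nucleic acids and can engage the kinase RIPK3, stood at 0.223 and 2.81 RPKM. Its ratio of 12.6 (8.63 to 19.1, from 29 and 370 reads) was the widest of the 10 in MEFs. The authors' deposited GFOLD log2 changes are shrunk towards 0. In MEFs they were 3.02 for Zbp1, 2.32 for Dhx58, 1.42 for Ifih1, 1.33 for Ddx58 and 1.31 for Tlr3. Those of the other sensor genes in MEFs lay between -0.21 for Mb21d1 and 0.49 for Trex1.

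Mb21d1, which encodes cGAS, was the one gene of the set with a lower level in the knockout, at 1.90 RPKM in wild-type and 1.32 RPKM in knockout MEFs. That was 69.8% of wild-type (58.0% to 83.8%), not enough for a call. Tmem173, which encodes STING, stood at 12.7 and 15.0 RPKM, a ratio of 1.18 (1.05 to 1.33). Mavs stood at 8.92 and 9.57 RPKM, and its interval of 0.928 to 1.24 included 1. Both adaptors thus had ratios near 1, and the interval of Mb21d1 lay below 1 without a call. Tbk1 stood at 7.98 and 10.5 RPKM, a ratio of 1.32 (1.21 to 1.44). Trex1, an exonuclease that degrades cytosolic DNA, stood at 7.16 and 11.9 RPKM, a ratio of 1.66 (1.44 to 1.92). Neither was called at 2-fold. At a 1.5-fold rule Trex1 and Tlr3 joined the 4 called genes, making 6 of 10, against 7.98% of all genes, and none was lower, against 4.02%.

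**Figure D1:**
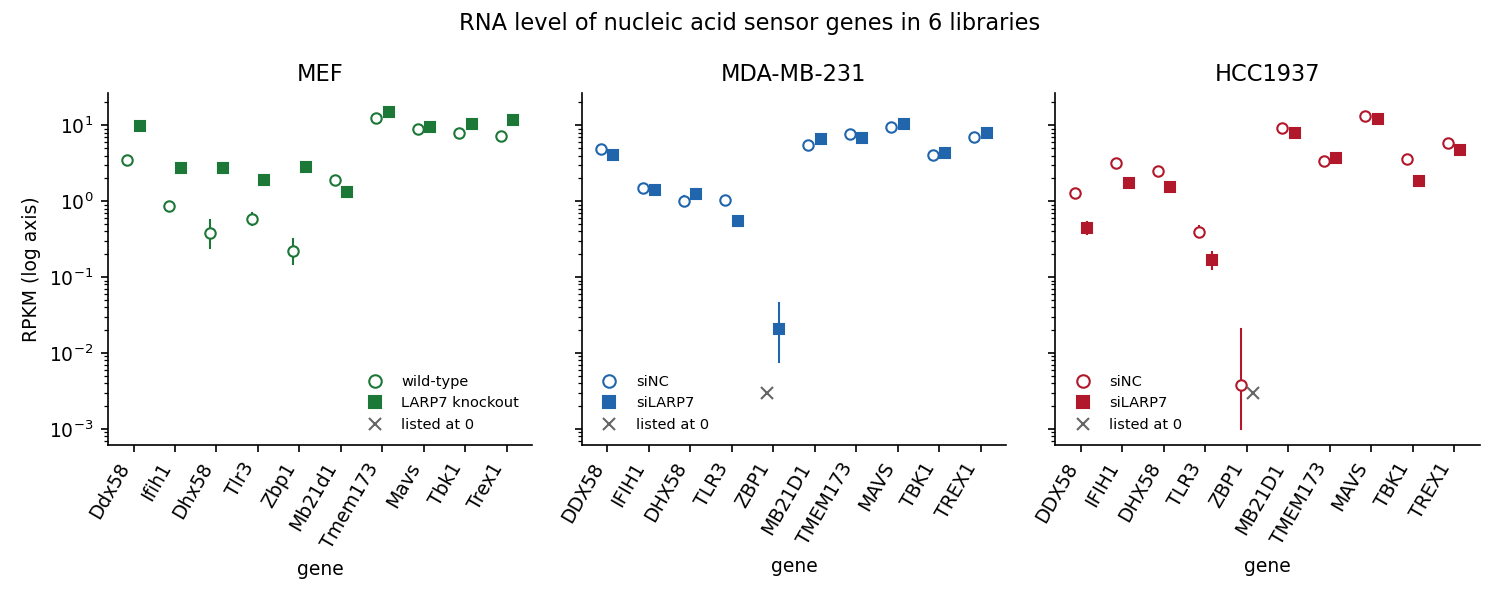
RNA level of the 10 genes in each library, in RPKM on a log axis, with open circles for controls and filled squares for LARP7-depleted cultures. Bars are exact 95% Poisson intervals of the recovered reads, cut off at the lower end of the axis, and crosses mark genes listed at 0. In MEFs the squares of Ddx58, Ifih1, Dhx58, Tlr3 and Zbp1 lie above their circles, and in HCC1937 those of DDX58, IFIH1, DHX58, TLR3 and TBK1 lie below.

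Because RPKM is per length, levels could be ordered within a library. In wild-type MEFs Tmem173 was highest, followed by Mavs, Tbk1 and Trex1, whose neighbouring counting intervals overlapped, then by Ddx58, Mb21d1 and Ifih1, each apart from the next. Tlr3, Dhx58 and Zbp1 were lowest, again with overlapping neighbours. In the knockout library Ddx58 lay among Trex1, Tbk1 and Mavs, with overlapping neighbouring intervals, and Mb21d1 was lowest of the 10 at 1.32 RPKM. Zbp1, Ifih1 and Dhx58 lay between 2.74 and 2.81 RPKM there, with overlapping intervals.

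Markers of other cell types were read beside the MEF values, since fewer cells of a type and less RNA per cell cannot be told apart in bulk RNA. Of 7 macrophage and leukocyte markers, 5 reached 1 RPKM in a MEF library, and their summed level was 35.4 RPKM in wild-type and 48.5 RPKM in knockout cells. Ptprc, which marks all leukocytes, was near 0, at 0.037 and 0.0293 RPKM. Cd68 stood at 2.05 and 3.62 RPKM, Adgre1 at 0.844 and 1.77 RPKM and Cd14 at 6.00 and 9.77 RPKM, each higher in the knockout. Lyz2, the highest of the list, at 22.4 and 28.3 RPKM, and Csf1r, at 3.55 and 4.22 RPKM, were higher by a smaller ratio. The epithelial list summed to 17.5 and 17.7 RPKM, nearly all from Krt19, and the endothelial list to 1.52 and 1.16 RPKM. The part of these markers in the sensor values was not tested, nor was that of passage, which the labels give only as a range.

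Of 51 other genes of the sensing pathway listed for mouse, 42 were at the minimum in MEFs, 6 were called higher and none lower, where 2.4% and 0.884% of all genes were. Their median log2 ratio at the minimum was 0.18, beside 0.0 over all genes. Irf7, a transcription factor that drives interferon genes, stood at 1.53 RPKM in wild-type and 11.8 RPKM in knockout cells, a log2 ratio of 2.34. Oas1a, which makes the activator of RNase L on double-stranded RNA, stood at 0.216 and 4.66 RPKM, a log2 ratio of 2.22. Ifi204, a mouse relative of the DNA sensor IFI16, stood at 1.88 and 7.68 RPKM, a log2 ratio of 1.59. Of the 11 adaptor and signalling genes, 2 were called. These were Ikbke, the closest relative of TBK1, at 2.39 and 7.38 RPKM (log2 ratio 1.31), and Tbkbp1, a TBK1-binding adaptor, at 9.03 and 21.2 RPKM (1.15). Other genes known to act with TBK1 in this list were not called, with log2 ratios of 0.06 for Tank, 0.07 for Azi2, -0.16 for Optn and -0.08 for Traf3. The median of the 11 was 0.06. Unc93b1, which carries endosomal Toll-like receptors from the endoplasmic reticulum, stood at 3.22 and 8.15 RPKM (1.12).

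The most abundant gene of each role in MEFs was otherwise uncalled. Eif2ak2, the kinase PKR, missed the rule narrowly, at 6.45 and 13.8 RPKM with a log2 ratio of 0.995. Irf3, the direct target of TBK1, stood at 11.7 and 13.3 RPKM, and Ripk3, the necroptosis kinase that partners ZBP1, at 52.9 and 64.5 RPKM. Ifnar2, a subunit of the interferon receptor, stood at 10.1 and 16.1 RPKM, and Ifnb1 was listed at 0 in both libraries. Rnaseh2c, a subunit of the enzyme that removes RNA from DNA, was lower in the knockout, at 26.6 and 21.1 RPKM. Ddx41 (13.3 and 13.7 RPKM), Irak1 (17.3 and 18.7 RPKM) and Rnf5 (21.2 and 24.1 RPKM) had log2 ratios between 0.05 and 0.18.

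**Figure D2:**
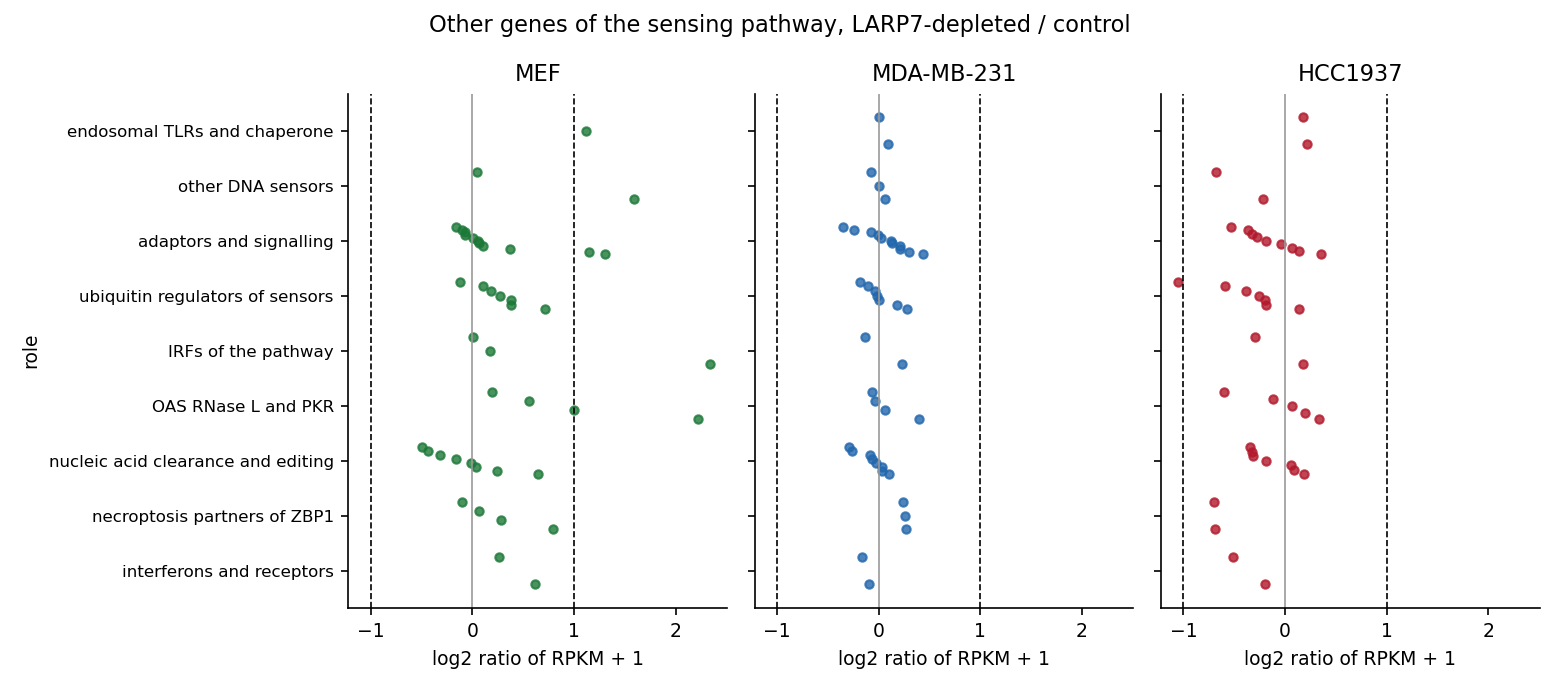
Log2 ratio of RPKM + 1, depleted over control, for the other genes of the sensing pathway that reached 1 RPKM in either library, with 1 point per gene and genes grouped by role. Dashed lines mark the 2-fold rule. On the higher side 6 points lie past it in MEFs, none in MDA-MB-231, and 1 lies past it on the lower side in HCC1937.

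In MDA-MB-231 no sensor gene was called in either direction. Of the 10 genes, 9 were at the minimum, and of all 17575 genes there 0.501% were called higher and 0.74% lower, so a count of 0 among 9 is near the background. The median log2 ratio of the 10 genes was 0.06, beside 0.001 over all genes at the minimum. At a 1.5-fold rule the count among the 9 was also 0, where 2.88% of all genes were called higher and 4.03% lower. TLR3 was the gene farthest from an even ratio. Its level was 1.04 RPKM under siNC and 0.544 RPKM under siLARP7, which is 52.4% of control (43.7% to 62.6%, from 346 and 195 reads). Its log2 ratio was -0.40, and -0.23 after a trend on GC content, transcript length and level was removed. The authors' GFOLD value for TLR3 was -0.63, and those of the other sensor genes lay between -0.11 for DDX58 and 0.12 for MB21D1.

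The RIG-I-like receptors differed little in MDA-MB-231 and not in one direction. DDX58 measured 4.87 RPKM under siNC and 4.10 RPKM under siLARP7, which is 84.3% of control (77.7% to 91.4%). IFIH1 stood at 1.49 and 1.41 RPKM, with an interval of 81.2% to 110% of control that included an even ratio. DHX58 stood at 1.01 and 1.26 RPKM, which is 125% of control (103% to 151%). The second DHX58 entry stood at 1.16 and 1.44 RPKM, with a log2 ratio of 0.18 beside 0.17 for the first. Whether the entries share reads was not tested. ZBP1 was barely present, listed at 0 with siNC and at 0.0208 RPKM with siLARP7, from 0 and 6 reads.

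MB21D1 stood at 5.45 and 6.52 RPKM in MDA-MB-231, which is 120% of control (111% to 129%), the opposite direction from MEFs. MAVS stood at 9.47 and 10.3 RPKM, or 109% of control (102% to 115%), and TMEM173 at 7.72 and 6.71 RPKM, or 86.9% (80.7% to 93.6%). TBK1 stood at 4.05 and 4.38 RPKM, with an interval of 99.1% to 118% of control. TREX1 stood at 6.99 and 8.01 RPKM, or 114% of control (104% to 126%). Apart from TLR3, all 8 other genes at the minimum thus lay between 84.3% and 125% of control. The exons of TREX1 lie wholly within exons of ATRIP on the same strand in GENCODE release 29, so its reads are uncertain in both human lines. Those exons span 1515 bases, whereas the length recovered from the values was 2197. The overlap of the exons that were counted is therefore not known.

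**Figure D3:**
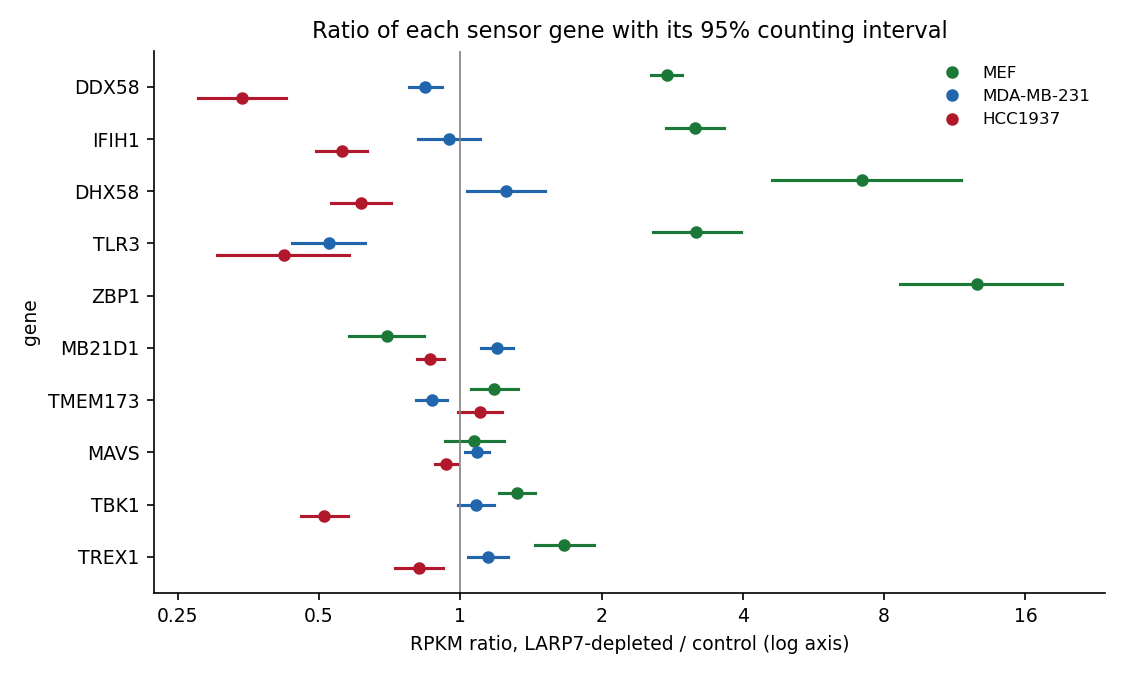
RPKM ratio of each gene, depleted over control, on a log axis, with its exact 95% counting interval. Each point is 1 pair of libraries, and ZBP1 is drawn for MEFs alone because a human library of each pair lists it at 0. The MEF points of DDX58, IFIH1, DHX58, TLR3 and ZBP1 lie at 2.75 or more, and the HCC1937 points of DDX58, IFIH1, DHX58, TLR3 and TBK1 lie between 34.3% and 61.4% of control.

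In HCC1937 no sensor gene was called either. As deposited, 8 of the 10 genes had counting intervals below an even ratio, all but TMEM173 and ZBP1. The share of all genes with such intervals was not computed, so this count has no background beside it. Of the 10 genes, 8 were at the minimum, and of all 15797 genes there 0.399% were called higher and 1.23% lower. The whole library was shifted: the median log2 ratio of all genes at the minimum was -0.14, beside -0.36 for the 8 sensor genes at the minimum and -0.25 for all 10. After scaling to a common median, a log2 shift of -0.134, genes called higher and lower moved from 63 and 195 to 116 and 128, or to 145 and 113 with a trimmed mean. At a 1.5-fold rule DDX58, IFIH1 and TBK1 were called lower, 3 of 8, where 10.8% of all genes were, and none higher, where 2.75% were, all as deposited. These calls did not hold under every alternative. IFIH1, at -0.59, was at -0.50 relative to the library shift, TBK1 was at -0.56 under trimmed-mean scaling, and all 3 fell short of the 1.5-fold rule once the trend with transcript GC content, length and level was removed.

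DDX58 measured 1.29 RPKM under siNC and 0.442 RPKM under siLARP7, which is 34.3% of control (27.6% to 42.5%, from 332 and 117 reads). As an RPKM ratio this was the farthest from even among the genes at the minimum in HCC1937, whereas on RPKM + 1 TBK1 was farther. Its log2 ratio on RPKM + 1 was -0.67, and -1.36 with a pseudocount of 0.1, which is past the 2-fold rule. IFIH1 stood at 3.15 and 1.76 RPKM, or 55.9% of control (49.4% to 63.3%). DHX58 stood at 2.51 and 1.54 RPKM, or 61.4% of control (53.0% to 71.1%), and its second entry at 3.05 and 1.81 RPKM. All 3 RIG-I-like receptors were thus lower in the library with siLARP7. Relative to the shift of the library, their log2 ratios were -0.62 for DDX58, -0.50 for IFIH1 and -0.38 for DHX58. The authors' GFOLD values were -1.18 for DDX58, -0.63 for IFIH1, -0.46 for DHX58, -0.76 for TBK1 and -0.72 for TLR3. Those of the other sensor genes lay between -0.10 for MB21D1 and 0 for TMEM173 and ZBP1.

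TLR3 stayed under the minimum in HCC1937, at 0.398 and 0.167 RPKM, or 42.1% of control (30.3% to 57.8%, from 132 and 57 reads). ZBP1 was listed at 0.00375 RPKM with siNC and 0 with siLARP7, from 1 and 0 reads, so a difference was not detectable at this depth. TBK1 stood at 3.59 and 1.85 RPKM, or 51.4% of control (45.7% to 57.7%), a log2 ratio of -0.69, or -0.60 relative to the library shift. In GENCODE release 29, 14.7% of its exon bases overlap an antisense gene, and the labels do not say whether strand was counted.

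The remaining genes were not called in HCC1937. MB21D1 stood at 9.23 and 7.97 RPKM, or 86.3% of control (80.8% to 92.2%), and relative to the library shift its log2 ratio was -0.07. MAVS stood at 13.2 and 12.3 RPKM, or 93.1% of control (88.2% to 98.2%), but its log2 ratio of -0.10 became 0.03 relative to that shift and 0.08 under trimmed-mean scaling. TMEM173 stood at 3.40 and 3.75 RPKM, with an interval of 99.1% to 123% of control. TREX1 stood at 5.79 and 4.73 RPKM, or 81.7% of control (72.7% to 91.9%). Its log2 ratio of -0.24 was -0.49 after the trend on GC content, transcript length and level was removed. TMEM173 was the one gene of the 10 with a higher deposited level under siLARP7 in this line, joined by MAVS under either scaling.

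**Figure D4:**
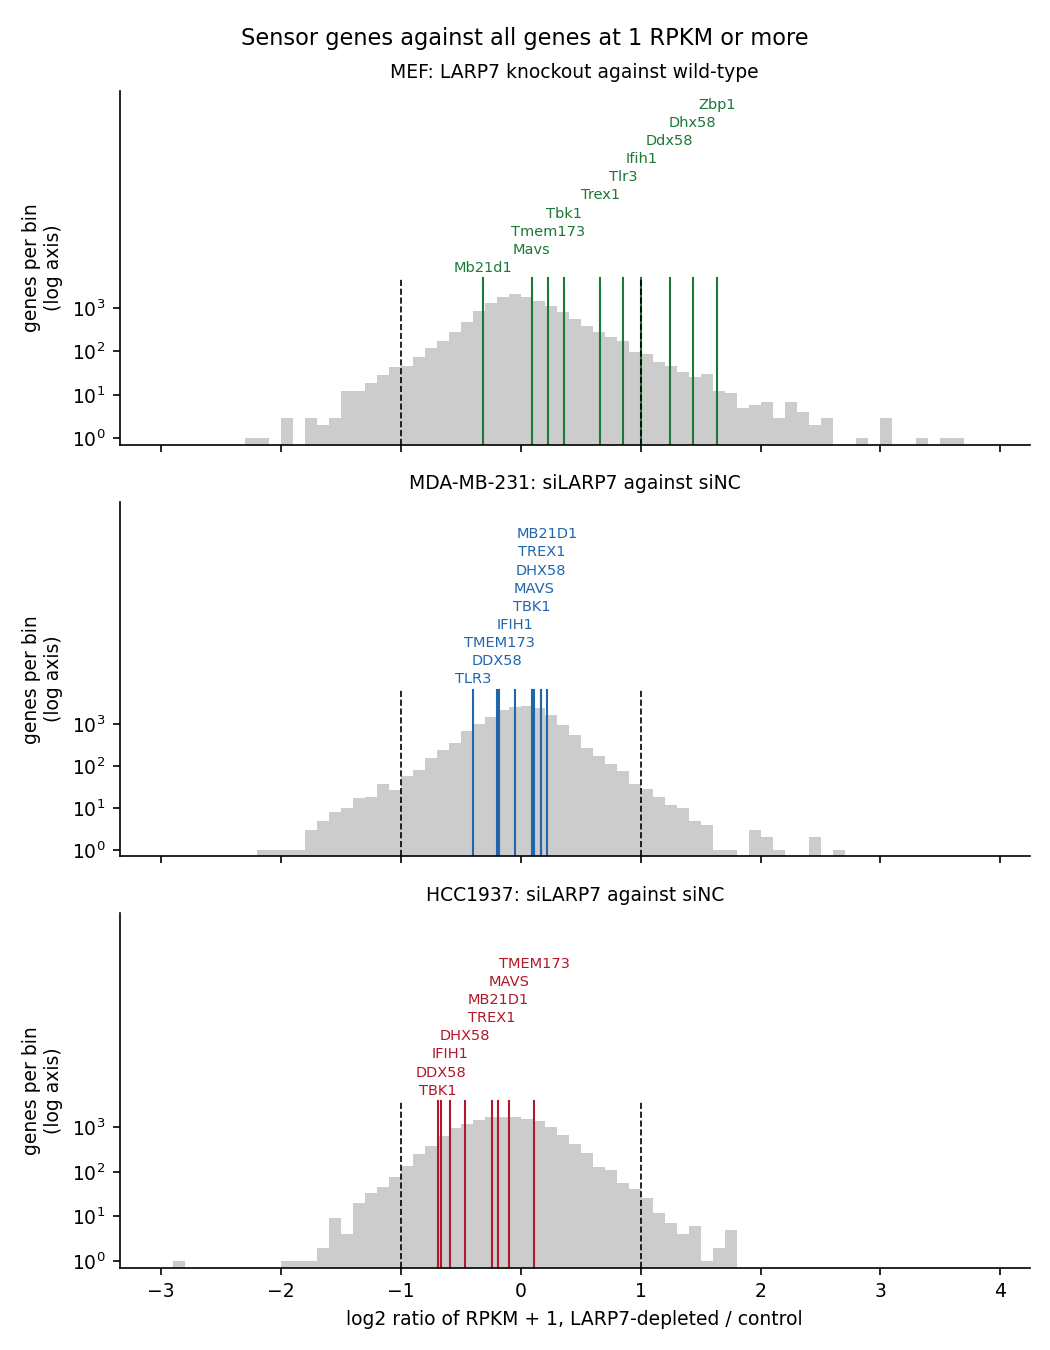
Number of genes per bin of log2 ratio (grey bars, log axis) for all genes that reached 1 RPKM in either library of a pair, with vertical lines at the sensor genes, named in order from left to right. Dashed lines mark the 2-fold rule. In MEFs 4 sensor genes lie past it, and none in either human line.

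In HCC1937 the log2 ratio moved with the GC content of the transcript. Across 11962 protein-coding genes Spearman's rho between them was 0.574, against 0.362 across 12900 genes in MDA-MB-231, as a description across genes that share the same libraries. Genes under 45% GC had a median log2 ratio of -0.372 (3839 genes) in HCC1937, and those at 55% or more had 0.08 (4185 genes). TBK1 (39.3% GC), DDX58 (40.5%) and IFIH1 (43.3%) are among the low-GC genes. With that trend, and those on transcript length and level, removed, their log2 ratios were -0.41, -0.41 and -0.37. DHX58 (58.2% GC) and TREX1 (63.1%) were farther from 0 after removal, at -0.56 and -0.49, than the 3 low-GC genes. TLR3 (37.6% GC) moved from -0.26 to 0.03, but it was under the minimum and not among the genes fitted, so that value extends the trend beyond them. Transcript sequences for mouse were not used here, so the same values were not computed for MEFs.

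**Figure D5:**
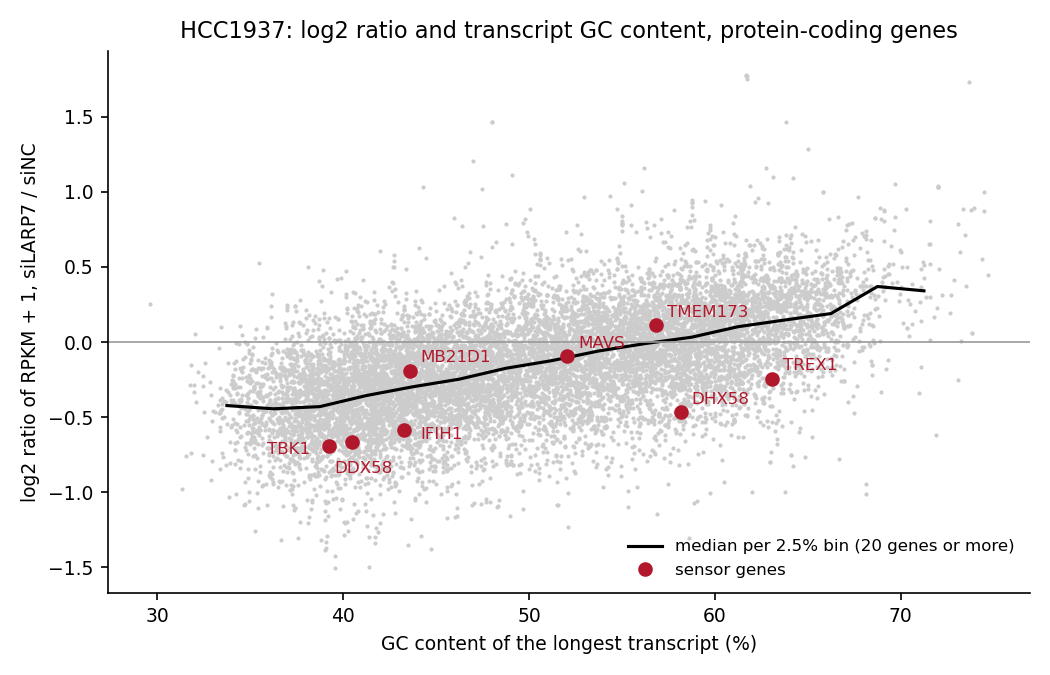
Log2 ratio of RPKM + 1, siLARP7 over siNC in HCC1937, against the GC content of the longest transcript for protein-coding genes (grey points), with the median per bin (black line) and the 8 sensor genes at the minimum (red). TBK1, DDX58 and IFIH1 lie below the median line at low GC, and DHX58 and TREX1 lie below it at high GC.

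Calls among the other pathway genes of the human lines were near the background. In MDA-MB-231, 42 of 52 were at the minimum and none was called, where 0.501% of all genes were called higher and 0.74% lower, with a median log2 ratio of 0.00 beside 0.001 over all genes. IRAK1, a kinase of Toll-like receptor signalling, measured 33.8 RPKM under siNC and 46.0 RPKM under siLARP7, and DNASE2, the lysosomal DNA nuclease, at 32.0 and 26.5 RPKM. UNC93B1 (27.5 and 27.6 RPKM), DDX41 (log2 ratio 0.00), RNF5 (37.1 and 36.2 RPKM) and EIF2AK2 (4.55 and 4.41 RPKM) were nearly even. IRF3 stood at 23.9 and 21.7 RPKM, RIPK1 at 5.76 and 6.96 RPKM and IFNAR1 at 10.1 and 9.33 RPKM.

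In HCC1937, 38 of 52 pathway genes were at the minimum, none was called higher and 1 was called lower, where 0.399% and 1.23% of all genes were. That gene was TRIM32, a ubiquitin ligase that acts on STING, which measured 5.15 RPKM under siNC and 1.97 RPKM under siLARP7. Its log2 ratio of -1.05 was -0.96 relative to the library shift, which ended the call. Among the most abundant genes of each role, CASP8, a protease that restrains necroptosis, stood at 2.39 and 1.09 RPKM, a log2 ratio of -0.70. IRAK1 stood at 159 and 204 RPKM, with a log2 ratio of 0.36. With the trend removed it was at -0.12, beside the mean of -0.15 over the fitted genes, which the removal keeps. IRF3 stood at 24.4 and 19.6 RPKM, DDX41 at 25.1 and 21.5 RPKM, and OASL at 13.7 and 12.6 RPKM. UNC93B1 (14.6 and 17.1 RPKM), RNF5 (34.9 and 38.4 RPKM) and RNASEH2A (63.7 and 66.6 RPKM) had log2 ratios of 0.21, 0.14 and 0.06. With the trend removed but that mean kept, they were at -0.15, -0.05 and -0.11, so these values are read against -0.15 and not against 0. IFNAR2 stood at 2.07 and 1.68 RPKM.

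Between the human control libraries the sensor genes themselves differed in level. DDX58 was 3.78-fold higher in MDA-MB-231 than in HCC1937 (interval 3.34 to 4.28), TLR3 was 2.61-fold higher (2.13 to 3.21) and TMEM173 was 2.27-fold higher (2.07 to 2.49). IFIH1 was 2.11-fold higher in HCC1937 (1.85 to 2.41), DHX58 was 2.49-fold higher (2.10 to 2.96) and MB21D1 was 1.69-fold higher (1.57 to 1.83). The RIG-I-like receptors therefore did not order alike in the lines, and DDX58 exceeded IFIH1 in MDA-MB-231 whereas IFIH1 exceeded DDX58 in HCC1937. MAVS had the highest level of the 10 in both lines, and ZBP1 the lowest. TBK1 and TREX1 differed least between the lines, with HCC1937 to MDA-MB-231 ratios of 0.888 (0.808 to 0.975) and 0.827 (0.743 to 0.921). These lines differ in culture medium and origin as well as in genotype, which cannot be told apart here.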

How the data were processed

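RNA abundance was measured in 6 libraries, 1 per group. The submitters' processing notes name cutadapt, FastQC, STAR and GRCh37 without versions, and no label or header names a mouse build for the MEF table. The deposited values are the authors' RPKM of each gene in each library, as the file headers name them. Per the file headers, the authors' tables add a shrunken log2 change computed by GFOLD (0.01), which is quoted as theirs.

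Log2 ratios were computed on RPKM + 1, and genes at 1 RPKM or more in either library of a pair were called by size at 2-fold. Depth was recovered from the steps between RPKM values, and the smallest gene length giving whole read numbers (relative tolerance 2e-06) gave the reads. In the human tables this used 4 values per gene and matched the GENCODE release 29 exon length for 5 of 10 genes. In MEFs it used 2 values, so reads are the smallest the values allow and intervals the widest. Intervals of ratios are exact 95% Clopper-Pearson intervals, and those of levels are exact Poisson intervals. A single read in a gene of 1 kb adds 0.0187 to 0.0271 RPKM, depending on the library.

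Alternatives were a pseudocount of 0.1, other level minimums, 2 scalings, a 1.5-fold rule, and removal of a degree-3 polynomial trend on GC content, length and level over human protein-coding genes. In simulated data drawn from the control libraries, changes were set only in genes at 5 RPKM or more in the control. Those changed 3-fold were called in 98% of cases for MEFs (14003 genes simulated at the minimum), 100% for MDA-MB-231 (17212 genes) and 100% for HCC1937 (15680 genes). Most sensor genes were under 5 RPKM in each control library, so these rates do not describe them. Tlr3 in MEFs, with an RPKM ratio of 3.18, was not called. Genes changed 2-fold were called in 14%, 8% and 16% of cases, so the size rule seldom calls a change of just 2-fold. Unchanged genes were called 80 times of 13803 for MEFs, 19 of 17012 for MDA-MB-231 and 15 of 15480 for HCC1937. The simulated mouse genes were given lengths drawn at random from human genes. All draws held counting error only, so these counts are not false-call rates of the real pairs.

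The sensor genes, the pathway list, the markers and the rule for named genes were chosen with earlier results of these data known. The rule names all sensor genes, every called pathway gene and the most abundant pathway gene of each role. Where several entries shared a name, the one whose ID carries that symbol was used. Each human table was used without 47 duplicated pseudoautosomal entries. Work used Python 3.11.15 with numpy 2.4.6, pandas 2.3.3 and scipy 1.17.1.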

Additional observations from a re-analysis of the deposited data

Results flagged for a closer look

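Under siLARP7 the log2 ratio of DHX58 was 0.170 for MDA-MB-231 but -0.466 for HCC1937, opposite directions in the lines with both counting intervals apart from an even ratio. As deposited, MB21D1, MAVS and TREX1 were split between the lines in the same way, so the pattern is not particular to DHX58. After scaling to a common median DHX58, MB21D1 and TREX1 kept their direction in each line. MAVS turned to 0.03 in HCC1937. With the polynomial trend removed, DHX58 was at 0.07 in MDA-MB-231 and -0.56 in HCC1937. The authors' GFOLD values for DHX58 were 0.002 and -0.46. The difference between the lines was not tested, since each group held 1 library.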

How the results depend on the processing

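No paired analysis was possible because each group held 1 library and the labels carry no replicate numbers, and for the same reason no replicate could be left out. None of the counts and medians recomputed under the alternatives reversed. In MEFs 3 sensor genes were called higher under trimmed-mean scaling, 5 with a pseudocount of 0.1 and 6 with a 1.5-fold rule. The median log2 ratio of the sensor genes there was 1.08 with a pseudocount of 0.1 and 0.36 at a minimum of 5 RPKM, where 1 sensor gene was called higher. With a 1.5-fold rule 11 of 42 pathway genes in MEFs were called higher, where 7.98% of all genes were. In MDA-MB-231 the median of the sensor genes was 0.14 at the minimum of 5 RPKM. In HCC1937 a pseudocount of 0.1 gave 1 sensor gene and 4 pathway genes called lower and a median of -0.477. The 1.5-fold rule gave 3 of 8 sensor genes and 6 of 38 pathway genes called lower, where 10.8% of all genes were. Either scaling left 0 pathway genes called lower in HCC1937. Shares over all genes were not computed for a pseudocount of 0.1 or a minimum of 5 RPKM, so counts under those settings have no background beside them. Of log2 ratios of single sensor genes recomputed with another pseudocount, either scaling or the trend removed, 78 stayed within their counting interval and 32 did not. The moves at a pseudocount of 0.1 follow from its construction, since low genes are shrunk less, and for the others the cause was not tested. Depth limits ZBP1 in the human lines, where no library held more than 6 reads.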
